A study of Mus musculus with 8 samples.

Results

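The genes described here encode the receptors for glutamate, GABA and acetylcholine of the nicotinic type in Neuro2a cells, a mouse neuroblastoma line. They were taken by gene symbol, in a choice made with earlier results of these data known. The symbols cover every AMPA, kainate, NMDA, delta and metabotropic glutamate receptor gene of the deposited count table. Every GABA-A, rho and GABA-B receptor gene and every nicotinic receptor gene of that table is also included. This gave 63 of the 55367 genes in the table. A gene was taken as expressed when its CPM, the share of a library's counts scaled to a common total, averaged at least 0.5 over the 6 libraries, and 15 of the 63 were.

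The study transfected Neuro2a cells for CRISPR activation (CRISPRa), in which a guide RNA (sgRNA) brings a cutting-deficient Cas9 joined to the activator VP64 to a chosen gene, here Scn2a. CRISPRa cultures received 750 ng of a plasmid for the sgRNA and 750 ng of a plasmid for sadCas9-VP64, the Staphylococcus aureus enzyme. The no-sgRNA cultures are labelled as treated with VP64 without an sgRNA, and their plasmid amounts are not given. By these labels both groups received the activator. Whether another plasmid took the place of the guide plasmid in the controls is not stated. The guide and the presence of a further plasmid therefore cannot be told apart here. Poly(A)-enriched RNA was sequenced, and counts were analysed for 3 libraries per group. The labels number the CRISPRa libraries 2, 3 and 5, whereas the controls carry the numbers 2, 3 and 4. All libraries come from 1 tumour cell line. The labels do not say whether replicates were separate cultures, so every p-value measures the spread between these samples, which may be technical.

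AMPA, kainate and NMDA receptors are cation channels of the ionotropic glutamate family, and each is an assembly of several subunits. An NMDA receptor needs the GRIN1 subunit, which joins GRIN2 or GRIN3 subunits, while GRIK5 forms kainate channels only together with another kainate subunit. GABA-A and nicotinic receptors belong to the pentameric channels, in which alpha and beta subunits are combined, and GABA-B and metabotropic glutamate receptors act through G proteins. Sympathetic neurons, the lineage from which neuroblastoma arises, carry nicotinic receptors built around the alpha3 subunit.

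The promoters of Chrnb2, Grin1 and Grin3b are printed because these genes gave the largest changes among the receptor genes past the test. Each is the RefSeq window from 250 bases before to 50 after the annotated start on GRCm38.p6, read in the gene's direction. Chrnb2 lies at chr3:89764583-89764882 on the minus strand, Grin1 at chr2:25319138-25319437 on the minus strand and Grin3b at chr10:79970474-79970773 on the plus strand. Capitals mark every match to 5 searched motifs, on either strand.
Chrnb2: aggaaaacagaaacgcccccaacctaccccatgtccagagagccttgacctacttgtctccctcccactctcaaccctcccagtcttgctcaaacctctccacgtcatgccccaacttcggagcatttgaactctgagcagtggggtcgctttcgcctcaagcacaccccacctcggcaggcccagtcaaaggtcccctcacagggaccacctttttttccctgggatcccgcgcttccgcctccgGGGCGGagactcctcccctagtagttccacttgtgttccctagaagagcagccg
Grin1: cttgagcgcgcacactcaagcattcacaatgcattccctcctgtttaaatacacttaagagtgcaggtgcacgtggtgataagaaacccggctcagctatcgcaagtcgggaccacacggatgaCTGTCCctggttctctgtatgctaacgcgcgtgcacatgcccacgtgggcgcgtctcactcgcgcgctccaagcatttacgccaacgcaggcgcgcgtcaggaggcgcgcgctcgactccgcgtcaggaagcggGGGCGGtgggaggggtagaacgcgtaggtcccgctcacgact
Grin3b: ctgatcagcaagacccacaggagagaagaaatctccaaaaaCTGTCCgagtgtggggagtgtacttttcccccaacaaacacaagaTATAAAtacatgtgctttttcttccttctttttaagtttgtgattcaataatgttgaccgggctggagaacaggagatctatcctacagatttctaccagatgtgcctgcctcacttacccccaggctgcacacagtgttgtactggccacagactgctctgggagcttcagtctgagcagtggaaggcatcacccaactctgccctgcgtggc
The motifs, searched on both strands, were the core of the interferon-stimulated response element (GAAANNGAA), the left (CAGCACC) and right (GGACAG) ends of the element bound by the neuronal gene repressor REST, the GC box (GGGCGG) and the TATA core (TATAAA). Over the 32851 RefSeq promoters of this length, 8.56% held the first, 7.14% the second, 22.2% the third, 35.7% the GC box and 13.6% the TATA core. The Chrnb2 window held only a GC box, 4 bases before the start. In the Grin1 window a GGACAG match on the reverse strand and a GC box were found, and in that of Grin3b a GGACAG match on the reverse strand and a TATA core. Of the 63 genes, 44 had an entry in the promoter table, with 52 windows. Among the 13 windows of expressed receptor genes, 9 held a GC box, 5 held GGACAG, 2 held the TATA core and none held either of the other motifs.

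The libraries held between 29739422 and 34248514 counts, and the 63 receptor genes took between 0.0387% and 0.04605% of them. The smallest count taken as detectable, 3 counts, equals 0.0876 to 0.1009 CPM, and it covers counting error only. Of the counts from 1 to 20, between 72.04% and 74.34% in each library were even, and how read pairs were counted is not given in the sources used here. A floor of 3 counts may therefore stand for fewer sequenced fragments. Of 13 markers of neurons and the sympathoadrenal lineage, 10 were expressed and they summed to 1966 to 2149 CPM with CRISPRa and 2116 to 2292 CPM without the sgRNA. Among 5 microglia and macrophage markers Cx3cr1 was at 0, and the 5 summed to 1.102 to 1.622 CPM against 0.7577 to 1.649 CPM. The 4 astrocyte markers summed to 1.294 to 1.45 CPM against 1.649 to 2.26 CPM. Olig2 was at 0 among 4 oligodendrocyte markers, which summed to 8.626 to 10.73 CPM against 9.25 to 11.53 CPM. The 5 muscle markers, with Myod1 at 0, summed to 3.019 to 4.408 CPM against 3.046 to 4.704 CPM. The 4 fibroblast markers summed to 14.63 to 21.36 CPM with CRISPRa and 28.63 to 32.36 CPM without the sgRNA. They did not move as a set. Mean CPM with CRISPRa and without were 12.7 and 20.6 for Pdgfra and 4.46 and 8.23 for Col1a2. For Dcn they were 0.881 and 1.25, with overlapping groups, and Col1a1 went the other way at 0.696 and 0.411, also overlapping. The part of these differences in the results below was not tested. Fewer cells of a type and less RNA per cell cannot be told apart in these bulk libraries. The targeted gene Scn2a averaged 7.80 CPM in the CRISPRa libraries and 5.61 CPM in the controls, and its groups did not overlap. It did not pass the test described below (edgeR adjusted p 0.0899), while the authors' deposited table of 8 samples gives it a log2 fold change of 0.62 and an adjusted p of 0.001376.

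Most receptor genes had few or no counts. In all 6 libraries 29 of the 63 had no count, which allows at most 3 counts a library, and 19 more had some counts but a mean under 0.5 CPM. The AMPA subunit genes Gria1, Gria3 and Gria4, the NMDA subunit genes Grin2a and Grin2b and the GABA-A gamma genes Gabrg1 and Gabrg3 were among those at 0. So were Gabra3, Gabra4, Gabra6, Gabrb2, Gabre, Gabrp and Gabrq of the GABA-A family. Of the GABA-B pair, Gabbr2 was at 0 in every library while Gabbr1 was among the most abundant receptor genes. Grik2, Grik3, Grm4, Grm5, Grm6, Grm7, Grm8, Chrna2, Chrna6, Chrna10 and Chrnb3 had no count either.

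Per exon length, the kainate subunit gene Grik5 led all receptor genes at a mean of 94.9 TPM (transcript abundance, the counts per exon length scaled to a common total), and its lowest library was above the highest of any other. Next came Gabbr1 at 50.1 TPM and Chrna3 at 45.8 TPM, whose ranges over libraries overlapped. Chrnb1 at 18.6 TPM lay below both, and Chrnb2 at 9.88 TPM lay below Chrnb1. The further genes named here each overlapped the next, from Chrnb2 and Grin2d at 5.86 TPM through Grin3b at 3.80, Chrna7 at 2.67, Gria2 at 1.89, Grin1 at 1.79, Gabrd at 1.75 and Chrna5 at 1.42 TPM down to Grin2c at 0.426 TPM. By counts, the top 3 genes held 73.6% of all receptor counts.

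**Figure D1:**
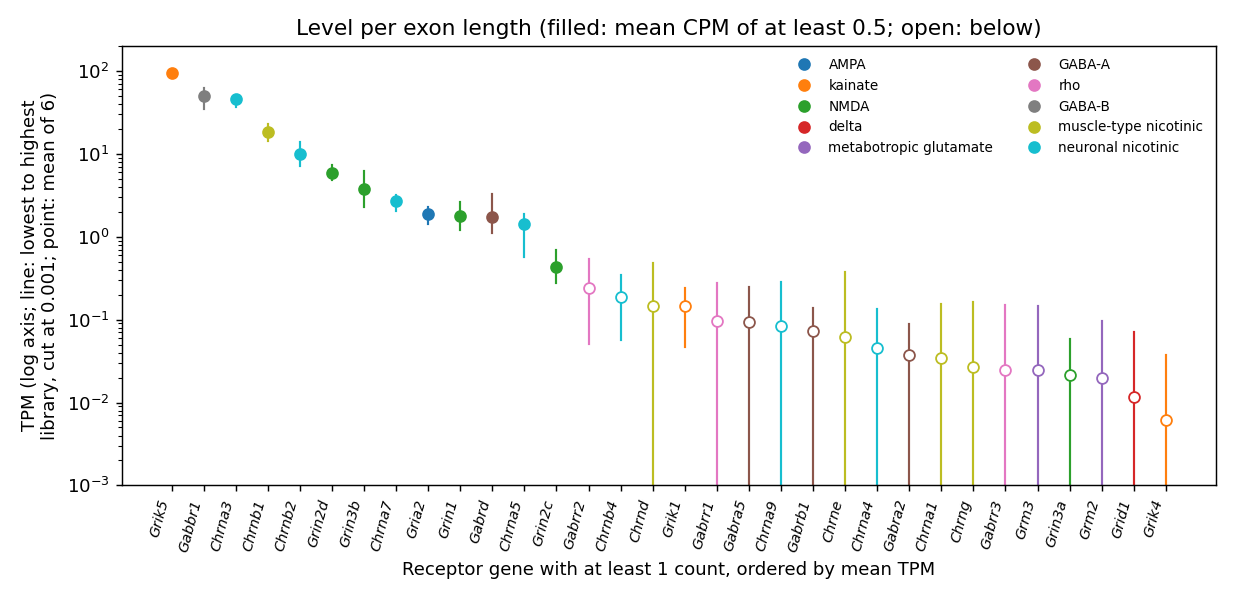
Mean level over 6 libraries in TPM (log axis) of the receptor genes shown, each with at least 1 count, with a line from the lowest to the highest library and colours for the receptor families. Filled points are expressed genes, led by Grik5 at 94.9 TPM, and open points are genes under a mean of 0.5 CPM.

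Between the groups, 4 receptor genes passed the test, 3 higher and 1 lower with CRISPRa. Chrnb2 and Grin1 were among those that rose, and Grin3b fell. The test was edgeR's quasi-likelihood F test over all 15117 genes that passed its filter on low counts, with a Benjamini-Hochberg adjusted p under 0.05 as the threshold. The filter kept 17 of the 63 receptor genes, the 15 expressed ones and Gabrb1 and Grik1, and 4 of 17 is 23.5%. Over all tested genes 18.7% were past the same threshold, 9.47% higher and 9.25% lower with CRISPRa, and the share of the receptor genes was near that background. The groups did not overlap in CPM for 7 of the 17 (41.2%), beside 36.4% of all tested genes. Of the 17 fitted log2 fold changes 10 were positive, and their median was 0.12, beside -0.0071 over all tested genes.

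**Figure D2:**
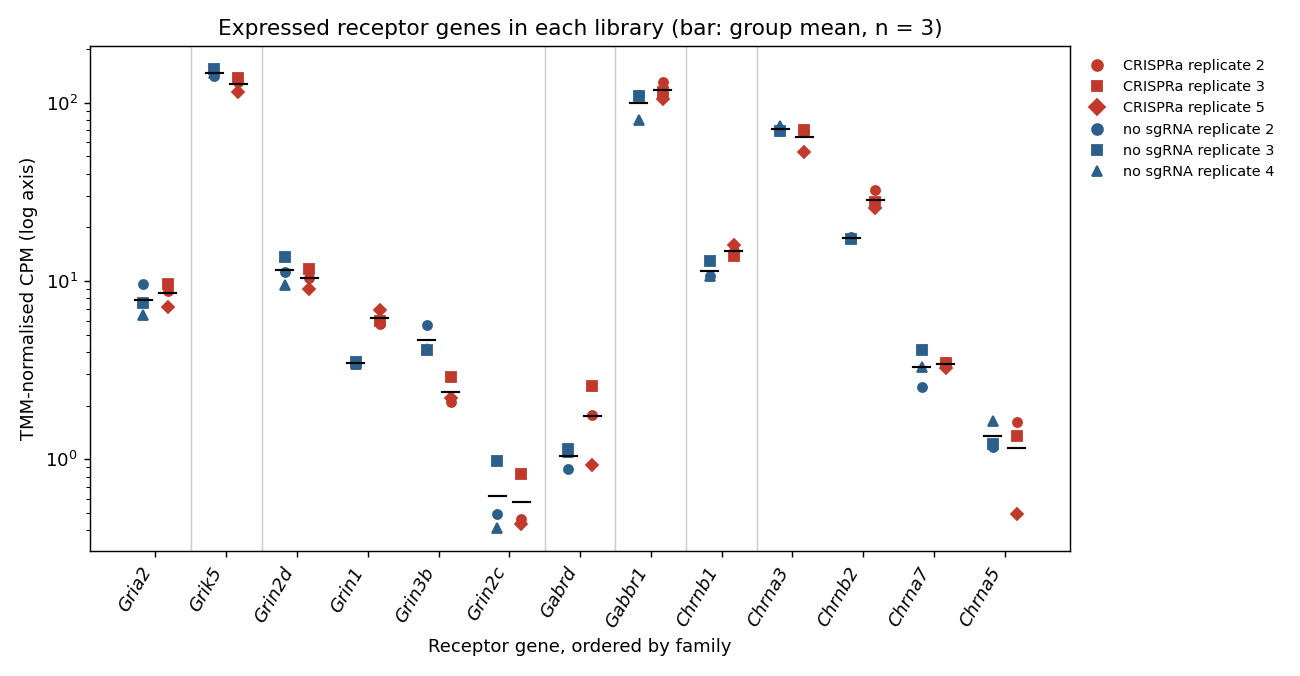
TMM-normalised CPM (log axis) of expressed receptor genes in each of 6 libraries, red for CRISPRa and blue for no sgRNA, with a bar at each group mean (n = 3). The groups are apart for Grin1, Chrnb2 and Grin3b and also for Chrnb1 and Grik5, while Gria2, Grin2d, Grin2c, Gabrd, Gabbr1, Chrna3, Chrna7 and Chrna5 overlap.

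**Figure D3:**
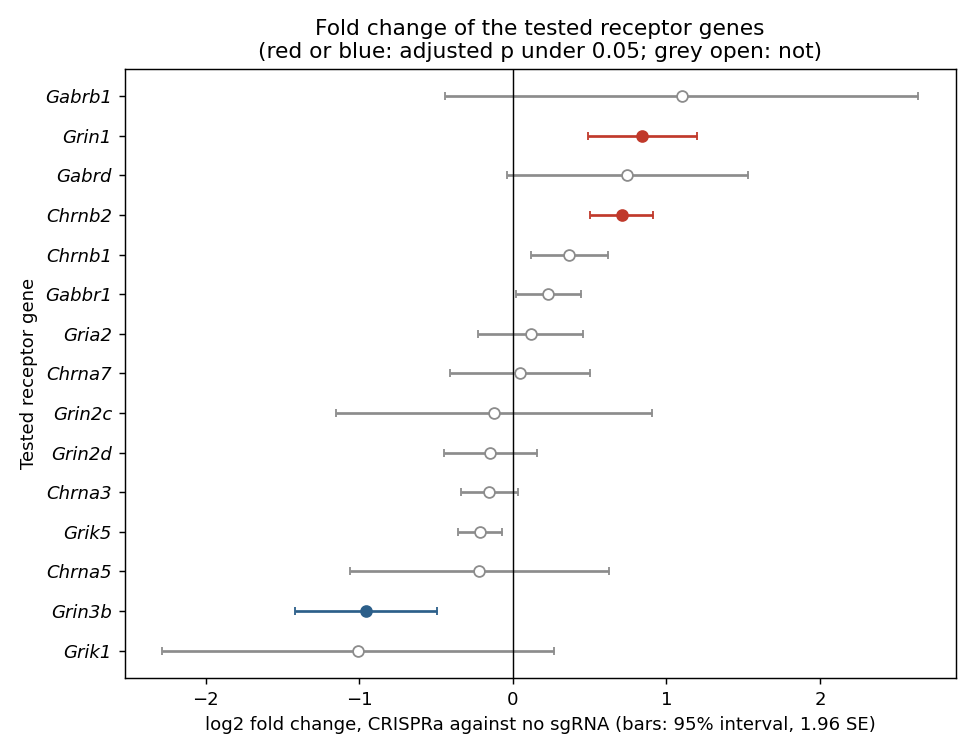
Log2 fold change, CRISPRa against no sgRNA, of tested receptor genes in edgeR's fit, with 95% intervals. Grin1 and Chrnb2 (red) rose and Grin3b (blue) fell at an adjusted p under 0.05, and grey points did not pass.

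Among the NMDA receptor genes the obligatory subunit and an accessory subunit moved in opposite directions. Grin1, the subunit present in every NMDA receptor (chromosome 2, 25291181 to 25319187, minus strand), had 199, 195 and 224 counts with CRISPRa (replicates 2, 3 and 5) and 105, 104 and 109 without the sgRNA (replicates 2, 3 and 4), an order that all counts below keep. All 3 CRISPRa libraries were far above the no-sgRNA libraries. The latter lay closer together than counting error alone would usually leave them, so their small SD understates the spread. Means were 6.21 ± 0.603 and 3.46 ± 0.0342 CPM (SD, n = 3 each). This rise of 0.84 on the log2 scale (SE 0.18) had an edgeR adjusted p of 0.004708. Of the exonic bases of Grin1, 1307 (13.47%) also belong to Grin1os on the opposite strand, which had at most 5 counts in any library.

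Grin3b, a glycine-binding NMDA subunit (chromosome 10, 79970715 to 79977190, plus strand), had 72, 94 and 72 counts with CRISPRa and 174, 122 and 131 counts without the sgRNA. No-sgRNA replicate 2 was the highest, and the groups did not overlap. Means were 2.39 ± 0.423 CPM against 4.65 ± 0.912 CPM (SD, n = 3 each). The log2 fold change was -0.96 (SE 0.24), with an edgeR adjusted p of 0.01118. Without no-sgRNA replicate 2 it was -0.78 and no longer passed (adjusted p = 0.05634). Grin3b shares 1059 exonic bases (32.13%) with Tmem259, which lies on the opposite strand and is far more abundant, at 178.8 CPM with CRISPRa and 194.4 CPM without (edgeR adjusted p 0.1975). The strand setting of the counting is not given in the sources used here, so reads of Grin3b and Tmem259 in that stretch cannot be told apart. The ratio of Grin3b to Tmem259 counts was 0.01124 to 0.01594 with CRISPRa and 0.02091 to 0.02914 without, with no overlap.

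The other expressed NMDA genes, which encode the GRIN2-type subunits that bind glutamate, did not pass. Grin2d had 361, 380 and 293 counts against 343, 408 and 301 (log2 fold change -0.15, SE 0.15, 95% interval -0.45 to 0.16). Grin2c, the receptor gene just inside the expression limit at 0.600 CPM, had 16, 27 and 14 counts against 15, 29 and 13. The groups overlapped for both genes, and the interval for Grin2c, -1.15 to 0.91, is wide, so that smaller changes were not detectable at this depth. Grin3a had 6 counts with CRISPRa and 8 without, summed over 3 libraries each. Within libraries, Grin1 counts were 0.5512, 0.5132 and 0.7645 of the Grin2d counts with CRISPRa and 0.3061, 0.2549 and 0.3621 of them without. The ratio of Grin3b to Grin1 was 0.3214 to 0.4821 with CRISPRa and 1.173 to 1.657 without. Neither pair of ranges overlapped. These ratios were chosen after the values were seen and are descriptions.

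Of the AMPA and kainate genes none passed the test. Gria2, the AMPA subunit whose edited form limits calcium entry, had 304, 314 and 233 counts with CRISPRa and 293, 225 and 205 without. The groups overlapped, at 8.54 ± 1.24 and 7.88 ± 1.59 CPM (SD, n = 3 each), and the 95% interval of the log2 fold change ran from -0.22 to 0.46. Grik5, a kainate subunit of high glutamate affinity, had 4487, 4481 and 3724 counts against 4312, 4606 and 4657. Its CRISPRa libraries lay below all no-sgRNA libraries, at 127 ± 11.5 against 148 ± 6.90 CPM (SD, n = 3 each). With a log2 fold change of -0.21 (SE 0.07) its edgeR adjusted p was 0.0567. Grik1 had 3, 5 and 10 counts against 11, 8 and 15 (edgeR adjusted p 0.319). Of the kainate partners GRIK5 can join, Grik1 was thus at a mean of 0.274 CPM, well under the expression limit of 0.5 CPM, and Grik2 and Grik3 were at 0. Grik4 had 2 counts in all, and the delta gene Grid1 had 4.

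Of the metabotropic glutamate receptor genes, which act through G proteins, Grm2 had 5 counts over the 6 libraries and Grm3 had 4, and neither was expressed by the limit used here.

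The GABA receptor genes described here did not pass. Gabrd, the delta subunit found in receptors outside synapses, had 61, 84 and 30 counts with CRISPRa and 27, 34 and 35 without. CRISPRa replicate 5 lay within the no-sgRNA range and replicates 2 and 3 above it, and the 95% interval ran from -0.04 to 1.53. Gabrb1, well under the expression limit at 0.279 CPM, had 18, 10 and 10 counts against 10, 6 and 0 (edgeR adjusted p 0.371). Of the alpha genes, Gabra2 had 2, 6 and 0 counts against 2, 5 and 0, and Gabra5 had 7, 2 and 2 against 2, 2 and 0. The rho genes, whose receptors are known from the retina, had 27 counts for Gabrr2, 12 for Gabrr1 and 6 for Gabrr3 over the 6 libraries.

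Gabbr1, the GABA-B subunit that binds GABA, had 4520, 3764 and 3424 counts with CRISPRa and 3375, 3239 and 2534 without. Means were 117 ± 12.9 and 99.8 ± 17.2 CPM (SD, n = 3 each), with CRISPRa replicate 5 below no-sgRNA replicates 2 and 3. The log2 fold change of 0.23 (SE 0.11) had an edgeR adjusted p of 0.162. It was 0.10 without no-sgRNA replicate 4 and 0.16 without CRISPRa replicate 2, and at most 0.31 with any other library left out. Its partner subunit gene Gabbr2, needed for the receptor to reach the cell surface, had no count in any library.

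The nicotinic genes held the receptor gene with the lowest adjusted p. Chrnb2, a beta subunit that pairs with alpha subunits in neuronal nicotinic receptors (chromosome 3, 89746195 to 89764632, minus strand), had 1112, 912 and 836 counts with CRISPRa and 541, 515 and 553 without. The lowest CRISPRa library was well above the highest no-sgRNA library, and the no-sgRNA libraries hardly differed in CPM. Their differences were again smaller than counting error alone would usually leave, so their SD understates the spread. Means were 28.6 ± 3.31 and 17.5 ± 0.199 CPM (SD, n = 3 each). The rise was 0.71 on the log2 scale (SE 0.10), a 1.637-fold difference, with an edgeR adjusted p of 0.0003086.

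A part of Chrnb2 overlaps another gene that rose. Of its exonic bases 1365 (16.29%) are shared with Adar on the opposite strand, and Adar is an RNA editing enzyme gene that interferon induces. Adar had 5456, 5306 and 5635 counts with CRISPRa and 2778, 2514 and 2042 without, a rise of 1.04 on the log2 scale (edgeR adjusted p 4.537e-06). The ratio of Chrnb2 to Adar counts was 0.2038, 0.1719 and 0.1484 with CRISPRa and 0.1947, 0.2049 and 0.2708 without, and these ranges overlapped. Without the strand setting, reads of Chrnb2 and Adar in the shared bases cannot be told apart, and their part in the Chrnb2 result was not tested. Relative to Chrna3, the Chrnb2 counts were 0.4718, 0.3945 and 0.4846 with CRISPRa and 0.2549, 0.2489 and 0.2344 without, and the groups did not overlap. This ratio too was chosen after the values were seen and is a description. Any reads of Adar counted for Chrnb2 in the shared bases would enter it as well.

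The alpha subunit genes did not pass. Chrna3 (chromosome 9, 55010111 to 55026562, minus strand), which encodes the ligand-binding subunit of ganglionic receptors, had 2357, 2312 and 1725 counts with CRISPRa and 2122, 2069 and 2359 without. CRISPRa replicate 5 was the lowest library, and the groups overlapped at 64.1 ± 9.56 and 71.2 ± 2.84 CPM (SD, n = 3 each). The 95% interval of its log2 fold change was -0.34 to 0.04. Chrna5, an accessory subunit gene in the same cluster (chromosome 9, 54980880 to 55007779, plus strand), had 56, 44 and 16 counts against 36, 36 and 52. Its lowest library was again CRISPRa replicate 5, which was also the lowest library for the sympathoadrenal marker Phox2a, at 132 CPM beside 210 to 319 CPM in the other 5. Phox2a itself fell (log2 fold change -0.69, edgeR adjusted p 0.002045), and its part in the values of Chrna3 and Chrna5 was not tested. Of the 10 tested markers of neurons and the sympathoadrenal lineage, Phox2a and Hand2 were the 2 that fell, and 3 rose (Tubb3, Chga and Uchl1). Those past the threshold were 50% of the 10, beside 18.7% of all tested genes, in a list chosen with earlier results of these data known. Chrnb4, the beta gene of that cluster, had 2, 5 and 4 counts against 10, 4 and 12 and was not tested. Chrna7, which forms receptors of a single subunit type, had 121, 114 and 106 counts against 78, 122 and 104 (95% interval -0.41 to 0.50). Chrna4 had 12 counts in all and Chrna9 had 14.

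Of the muscle-type genes Chrnb1, the beta subunit of the neuromuscular junction receptor, was expressed and the rest of that receptor was not. Chrnb1 had 507, 450 and 516 counts with CRISPRa and 328, 387 and 336 without. The groups did not overlap, at 14.8 ± 1.06 against 11.5 ± 1.36 CPM (SD, n = 3 each), and the log2 fold change of 0.37 (SE 0.13) had an edgeR adjusted p of 0.0559. Without no-sgRNA replicate 3 it passed, at 0.47 and an adjusted p of 0.04184. Chrnd had 0, 10 and 14 counts against 0, 0 and 2, Chrna1 had 8 counts in all, and Chrne and Chrng had 6 each, in 1 library.

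For each of Chrnb2, Grin1, Grin3b, Chrnb1 and Grik5, whose groups did not overlap, an exact permutation test on CPM means (two-sided) gave p = 0.1, the lowest that 3 libraries against 3 can reach. That value follows from the lack of overlap by which these genes were picked, and adds nothing to it. Chrnb2 and Grin1 kept their calls with each of the 6 libraries left out in turn. The 8 other settings tried include DESeq2 and limma-voom beside edgeR. Over these and the fits that left out a library, the largest adjusted p was 0.003515 for Chrnb2 and 0.01855 for Grin1. Grin3b passed in 5 of the 6 fits that left out a library.

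**Figure D4:**
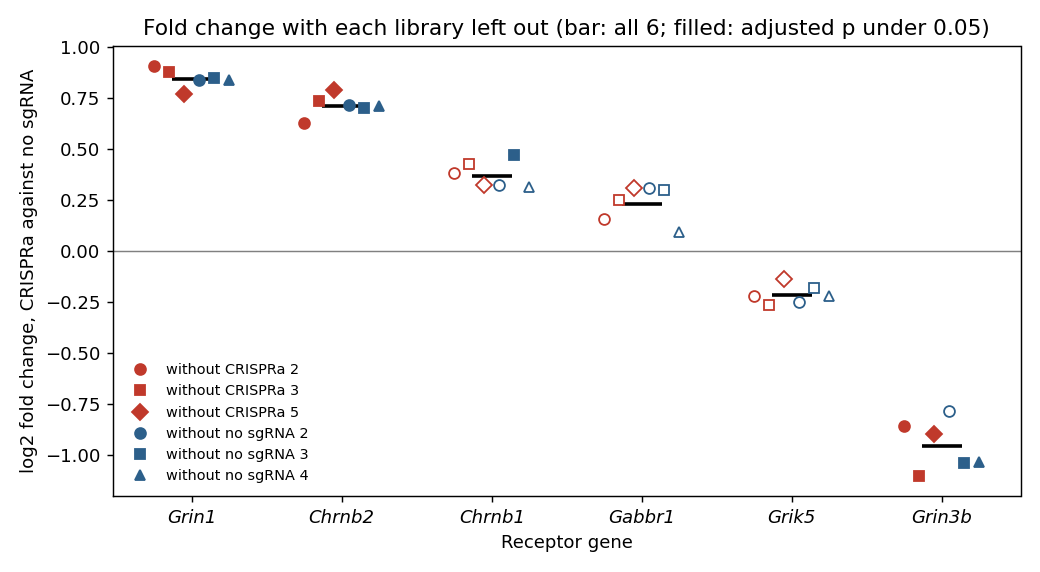
Log2 fold change of receptor genes with each library left out in turn, with a bar at the value from all 6 libraries and filled symbols where edgeR's adjusted p was under 0.05. Grin1 and Chrnb2 stay filled throughout, and Grin3b loses its call without no-sgRNA replicate 2, at -0.78.

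**Figure D5:**
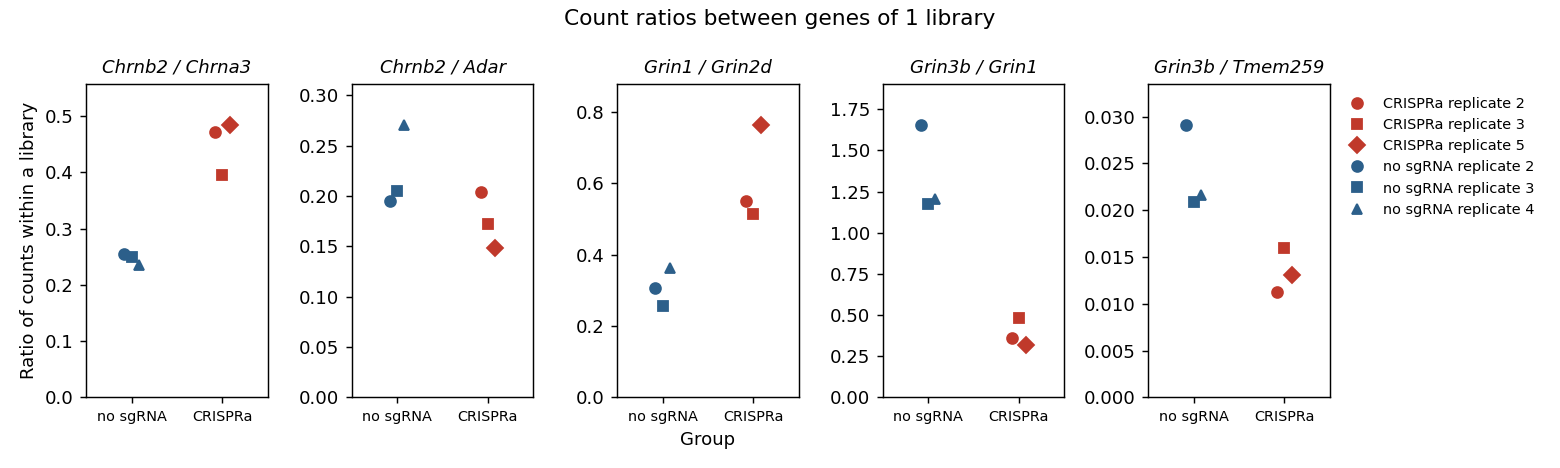
Ratio of the counts of 2 genes within each library, with 1 point a library and each axis from 0. Chrnb2 to Chrna3, Grin1 to Grin2d, Grin3b to Grin1 and Grin3b to Tmem259 have no overlap between the groups, while Chrnb2 to Adar overlaps (0.1484 to 0.2038 with CRISPRa, 0.1947 to 0.2708 without).

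In the authors' deposited table, a DESeq2 comparison over 8 samples that includes the libraries used here, 28.6% of the genes with an adjusted p were past 0.05. Of the 63 receptor genes 14 had an adjusted p in the authors' deposited table, and 8 of these were past 0.05, 6 higher and 2 lower. All 4 genes called in the 6 libraries were among the 8. In the authors' deposited table Chrnb2 had a log2 fold change of 0.70 (adjusted p 4.859e-13), Grin1 0.57 (0.00899) and Grin3b -0.75 (0.00213). Past 0.05 in the authors' deposited table but not in the 6 libraries were, among others, Chrnb1 at 0.32, Gabbr1 at 0.25 and Grik5 at -0.16. The 2 comparisons share samples. The authors' deposited table does not state its direction, which was read as CRISPRa against no sgRNA because Isg15 and Adar, far higher in every CRISPRa library, have log2 fold changes of 4.20 and 0.95 there.

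Receptors need other proteins for assembly, anchoring and gating, and 60 such partner genes were listed. The list was chosen with earlier results of these data known, so its shares beside those of all tested genes, here and below, are descriptions. The filter kept 38, of which 8 rose and 2 fell (26.3%, beside 18.7% of all tested genes), and their median log2 fold change was 0.15. Fewer passed with a library left out, between 5 and 8, with 5 without CRISPRa replicate 3, 5 without no-sgRNA replicate 4 and 6 without no-sgRNA replicate 2.

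Among partners of glutamate receptors 20 of 31 were tested, 2 rose and 1 fell (15%, beside 18.7% of all tested genes). Nptx1, a secreted pentraxin that clusters AMPA receptors, had 43, 40 and 34 counts with CRISPRa and 10, 10 and 6 without, a rise of 2.03 on the log2 scale (SE 0.48, edgeR adjusted p 0.008366). It was higher in 3 of 3 libraries and kept its call with each library left out. Grip1, a scaffold that binds AMPA receptor tails, rose from 26.4 ± 3.97 to 34.8 ± 2.90 CPM (SD, n = 3 each; edgeR adjusted p 0.02127). Dlg4, the main postsynaptic scaffold of NMDA receptors and one of the most abundant genes of this list with Dlg1 and the AMPA auxiliary subunit gene Cacng7, fell from 210 ± 2.24 to 179 ± 15.4 CPM (edgeR adjusted p 0.03018). The calls of Grip1 and Dlg4 depended on single libraries. Grip1 lost its call without CRISPRa replicate 3, no-sgRNA replicate 2 or no-sgRNA replicate 4, and Dlg4 lost it in 5 of 6 cases, all but without CRISPRa replicate 2. Cacng7 (123 against 113 CPM) and Dlg1 (171 against 174 CPM) did not pass.

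Of 17 partners of GABA receptors 12 were tested, 3 rose and 1 fell (33.3%, beside 18.7% of all tested genes). Gabarapl1, a relative of the GABA-A receptor-associated protein that also acts in autophagy, had 2289, 2128 and 2456 counts with CRISPRa and 1400, 1430 and 1515 without. The groups were well apart, and the rise was 0.55 on the log2 scale (SE 0.08, edgeR adjusted p 0.0002547). Of the 50-base words of Gabarapl1, 23.14% also occur, on either strand, in transcripts of other genes, mainly 1700101I11Rik. That gene lies on the opposite strand and covers 570 exonic bases (28.32%) of Gabarapl1. It did not pass the filter on low counts. Without the strand setting, the Gabarapl1 counts may be split or shared there. Nlgn2, an adhesion protein of inhibitory synapses, rose from 117 ± 8.26 to 153 ± 21.8 CPM (SD, n = 3 each; edgeR adjusted p 0.009491). Gabarapl2 rose (0.25 on the log2 scale, edgeR adjusted p 0.04494) and Plcl2, a phospholipase-like protein tied to GABA-A receptor traffic, fell (-0.20, edgeR adjusted p 0.03464). Both lost their calls in 5 of the 6 fits that left out a library. Gabarapl2 kept its call only without no-sgRNA replicate 3 and Plcl2 only without no-sgRNA replicate 2. Of the 50-base words of Gabarapl2, 12.2% also occur in transcripts of other genes, mainly Gm3724. Gphn, the gephyrin scaffold of inhibitory synapses, averaged 52.5 CPM in the CRISPRa libraries and 57.6 CPM in the others and did not pass (edgeR adjusted p 0.308).

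Partners of nicotinic receptors were tested for 6 of 12 genes, and 3 of the 6 rose, beside 9.47% of all tested genes that were higher. Agrn encodes agrin, the matrix protein that gathers acetylcholine receptors at the neuromuscular junction. It had 24687, 23763 and 23690 counts with CRISPRa and 8982, 8881 and 7191 without, from 273 ± 40.2 to 724 ± 7.39 CPM (SD, n = 3 each). The rise of 1.41 on the log2 scale (SE 0.09) had an edgeR adjusted p of 2.349e-08. Agrn starts 1966 bases beyond the end of Isg15, an interferon-stimulated gene on the same strand that went from 13.5 to 238 CPM (4.14 on the log2 scale, edgeR adjusted p 3.042e-13), and the part of that neighbour in the Agrn counts was not tested. Dok7, an adaptor of the muscle receptor kinase in the agrin pathway, rose from 8.79 ± 1.19 to 14.1 ± 0.785 CPM (edgeR adjusted p 0.002613). Agrn and Dok7 kept their calls with each library left out. Lynx1, a membrane-anchored modulator of nicotinic receptors, rose from 3.02 ± 0.364 to 4.82 ± 0.984 CPM (edgeR adjusted p 0.04652) and passed in 1 of the 6 fits that left out a library, that without CRISPRa replicate 5, and not in limma-voom (adjusted p 0.06531). Musk, the receptor kinase on which agrin and Dok7 act in muscle, was at 0 in all libraries. Ric3, a chaperone of nicotinic receptor assembly, was at 43.6 and 41.4 CPM and did not pass (edgeR adjusted p 0.587).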

How the data were processed

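RNA of 8 labelled samples was sequenced, and the authors deposited raw counts per gene for 6 of them, with each gene's summed exon length. STAR 2.5.1b, featureCounts, DESeq2, R 4.1.2 and build mm10 are named in the submitters' processing notes. Annotation, strandedness and the treatment of read pairs and of reads with several matches are not given in the sources used here. The count table's coordinates of all 63 receptor genes equal those of GENCODE M21 (GRCm38). A second table deposited by the authors holds, per the file headers, p-values and adjusted p-values, a Wald score, log2 fold changes and their errors, and a signal, the mean normalised count. None was recomputed.

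Counts of 3 libraries per group were fitted with edgeR 4.0.16 in R 4.3.3 (filterByExpr, TMM factors, glmQLFit, glmQLFTest, no covariate). P-values were adjusted over all 15117 tested genes by the Benjamini-Hochberg method. CPM are TMM-normalised, except that the 0.5 CPM limit and the levels beside it use library totals. TPM were computed from counts and exon lengths. An SE is the log2 fold change divided by the square root of F, and 95% intervals are normal intervals from it. The planned fit foresaw all samples with counts, which were 6. The script was tested on simulated data with the same spread for all genes, which need not be that of these libraries. There the edgeR fit recovered 16% of changes of 0.5 on the log2 scale and 98% of changes of 1. Of its 122 calls 8 were false. A gene that did not pass may therefore still have changed.

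The receptor genes and all lists were chosen with earlier results of these data known. Expressed receptor genes are named, save a few that enter the counts but whose own values are left out, others are named by their counts, and of the partners those past the threshold and the most abundant are named. Adar, Tmem259, Grin1os, Isg15 and the neighbours of Grina were chosen after their values were seen. Alternatives were RLE factors, library totals alone, no filter beyond 1 count, limma-voom (limma 3.58.1), DESeq2 1.42.0 with its independent filtering off, a replicate block, each library left out, gene-length trends taken out per library and other thresholds.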

Additional observations from a re-analysis of the deposited data

How the results depend on the processing

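The expressed receptor genes numbered 14 at a limit of 1 CPM, 17 at 0.25 CPM and 15 with each library left out. At an adjusted p under 0.1, 7 receptor genes passed (5 higher, 2 lower), and at 0.01, 2 passed, none of them lower (0). The shares of all tested genes past these limits were not computed. These counts, and that of the partner genes at 0.01 below, are therefore descriptions and cannot be set against a background. With no filter beyond 1 count, 2 were lower and the median log2 fold change was 0.31, which then covers genes with few counts. With a library left out, 3 to 4 receptor genes changed, 2 to 3 were higher and 0 to 1 lower, and the median lay between 0.04 and 0.25. Of the partner genes 5 passed at 0.01, and 5 to 8 with a library left out. The replicate numbers 2 and 3 occur in both groups, and the labels do not say whether they pair the samples. Deviations from the group means correlated at -0.00459 for number 2 and -0.0256 for number 3 across genes. These correlations cannot decide whether the samples were paired, as the means cover 3 libraries per group whose numbers match only in part. A replicate block on those 4 libraries gave 5 changed receptor genes (4 higher, 1 lower), 11 partner genes and a median of 0.19. Among all genes it gave 3174 calls, beside 2830 for the same 4 libraries without it, and leaving out a library gave 1986 to 2517 calls, beside 2829 from all 6. The log2 fold changes of some uncalled genes reversed. Gria2 ranged from -0.0083 without no-sgRNA replicate 4 to 0.28 without no-sgRNA replicate 2. On the libraries numbered 2 and 3, Chrna3 was at 0.0010 with the block and 0.0011 without it, and Chrna5 at 0.31 with the block and 0.31 without it. Chrna5 ranged from -0.53 without CRISPRa replicate 2 to 0.15 without CRISPRa replicate 5, and Chrna7 from -0.11 without no-sgRNA replicate 2 to 0.23 without no-sgRNA replicate 3. Grin2c ranged from -0.47 without CRISPRa replicate 3 to 0.34 without no-sgRNA replicate 3 and was also positive, at 0.02 and 0.05, without CRISPRa replicates 2 and 5. Grin2d ranged from -0.27 without no-sgRNA replicate 4 to 0.0003 without no-sgRNA replicate 3. Gabbr1 passed with no filter (edgeR adjusted p 0.0192) and with the block (0.04472), Grik5 with no filter (0.04181), and Chrnb1 with library totals alone (0.04994), with the gene-length trend removed (0.02976) and in DESeq2 (adjusted p 0.03876). The cause of these changes was not tested. The 95% intervals of Grin2c, Chrna5, Gabrd, Gabrb1 and Grik1 are the widest, and depth limits what can be said of them.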

Other observations

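Other transmitter-gated receptors of these cells were read from a list of 23 genes that was chosen after their values were seen. The serotonin-gated channel gene Htr3a was far more abundant than any glutamate, GABA or nicotinic receptor gene, at a mean of 1599 TPM. It fell from 1027 ± 29.6 CPM without the sgRNA to 844 ± 134 CPM with CRISPRa (SD, n = 3 each; edgeR adjusted p 0.04323). That call was lost in 5 of the 6 fits that left out a library, all but without CRISPRa replicate 2, and also with library totals alone (adjusted p 0.05553) and with the gene-length trend removed (0.1099). Its partner subunit gene Htr3b was at 36.3 and 33.2 CPM and did not pass.

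The ATP-gated channel gene P2rx3 had 1017, 926 and 1585 counts with CRISPRa and 546, 551 and 334 without, a rise of 1.18 on the log2 scale (SE 0.21, edgeR adjusted p 0.001254). P2rx7 rose from 53.0 ± 2.01 to 65.3 ± 1.35 CPM (SD, n = 3 each; edgeR adjusted p 0.008784). Both kept their calls with each library left out. P2rx4 at 32.5 and 27.9 CPM and the acid-sensing channel genes Asic1 at 77.6 and 68.0 CPM (edgeR adjusted p 0.09467) and Asic4 (0.05505) did not pass. None of the 5 glycine receptor genes was expressed. Of the 5 muscarinic receptor genes Chrm4 was at 6.98 and 6.63 CPM, Chrm3 was at 0.534 and 0.715 CPM, and neither passed.

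Grina, which carries a glutamate receptor name but encodes a membrane protein of another family, rose from 528 ± 19.6 to 716 ± 16.6 CPM (SD, n = 3 each; edgeR adjusted p 0.0001589) and kept its call with each library left out. Upstream on the opposite strand, Parp10 at 3322 bases (1.73 on the log2 scale, edgeR adjusted p 2.13e-09) and Plec at 14189 bases (0.46, 0.0005996) rose too. Downstream, Spatc1 did not pass (edgeR adjusted p 0.2849). The part of these neighbours in the Grina counts was not tested.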
